A study of Mus musculus with 6 samples.

Results

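The corticotropin-releasing hormone system was followed here through its 5 genes on the array: the peptides Crh and Ucn, the secreted binding protein Crhbp and the receptors Crhr1 and Crhr2. The genes were chosen by symbol, with the brightest probe set of a gene by its mean over the 6 arrays where there are several. Each of the 5 had 1 probe set whose platform annotation names that gene alone, so 5 of the 22180 genes tested are described. The set was also proposed with the low level of Crhbp in knockdown arrays already known. Its values are therefore descriptions, and nothing is inferred from how many of the 5 changed.

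Corticotropin-releasing hormone is a peptide cut from the precursor encoded by Crh. In the hypothalamus it drives the pituitary stress response, and in the hippocampus it is made locally, mainly by inhibitory interneurons and, early in life, by Cajal-Retzius cells. Its relative urocortin, encoded by Ucn, binds both receptors, whereas Crh binds CRHR1 far better than CRHR2. Both receptors are class B G protein-coupled receptors that raise cyclic AMP through Gs. CRHBP is a secreted protein that captures Crh and urocortin and so keeps them from the receptors, and in the forebrain it is made in part by somatostatin interneurons.

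The knockdown group consisted of 3 samples of primary hippocampal cells from mouse embryos at embryonic day 18, infected 7 days after seeding with the adeno-associated virus AAV1/2 bearing a knockdown construct against Diras2, and the control group of 3 such samples infected with a scrambled construct. RNA was taken 7 days after infection in both groups. The mouse strain, the construct's sequence and the promoter that drove it are not given in the sources used here, and the group has 1 knockdown construct, so effects of losing Diras2 and other effects of that construct cannot be told apart. The samples are labelled as biological replicates, with no word on whether cultures or litters were separate, so p-values here reflect only the spread between these samples, which may be technical.

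Levels are log2 RMA values, the deposited expression level of a probe set, on which 1 unit is a 2-fold difference. Array medians lay between 4.03 and 4.11, and array-to-array correlations over all genes were 0.992 to 0.995 within the knockdown group, 0.988 to 0.994 within the control group and 0.981 to 0.989 between them. Diras2, a Ras-family small GTPase and the targeted gene, was at 7.17, 6.23 and 6.08 in the knockdown arrays, against 10.17, 10.17 and 9.76 in the control arrays, and so was lower in each of them. The list of 7 neuronal markers had a mean level of 11.08 to 11.37 in knockdown arrays and 11.11 to 11.54 in control arrays, and the 10 measured markers of excitatory hippocampal neurons 8.24 to 8.69 in knockdown and 8.14 to 8.67 in control arrays. Markers of astrocytes were also well above the array medians, at 7.68 to 8.11 in knockdown and 7.95 to 8.16 in control arrays, while microglial markers averaged 4.32 to 4.39 in knockdown and 4.34 to 4.63 in control arrays. The oligodendrocyte lineage list averaged 5.79 to 6.59 in knockdown and 5.58 to 5.96 in control arrays, and that of endothelial cells and fibroblasts 5.37 to 5.45 in knockdown and 5.11 to 5.44 in control arrays. In these 6 lists 1 gene rose and 1 fell, where 7.80% of all genes were called. The platelet-derived growth factor receptor Pdgfra differed by 2.80 on the log2 scale and the synaptic protein Snap25 by -0.51, both named after their values were seen. Pdgfra lost its call without control replicate 2 and after adjustment for RNA integrity. Snap25, with an adjusted p of 0.0471 by limma, lost its call without each array but control replicate 3. It was also lost with quantile normalisation, median centring and adjustment for RNA integrity. The part of these lists in the results for the 5 genes was not tested. Of the 22180 genes, 1731 passed an adjusted p under 0.05 by limma, 924 higher and 807 lower in knockdown.

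Among the 5 genes, Crhbp was lower in knockdown arrays and the other 4 did not pass the test. Thus 1 of 5 was called, where 7.80% of all genes were called in either direction, 3.64% lower and 4.17% higher. The groups did not overlap for 2 of the 5, Crhbp and Crhr1, where 25.5% of all genes had groups that did not overlap. With the replicate number as a block, 2 of 5 were called, Crhbp lower and Crhr1 higher, where 11.7% of all genes were. Since the 5 were chosen with the Crhbp result known, nothing is read from these shares.

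**Figure D1:**
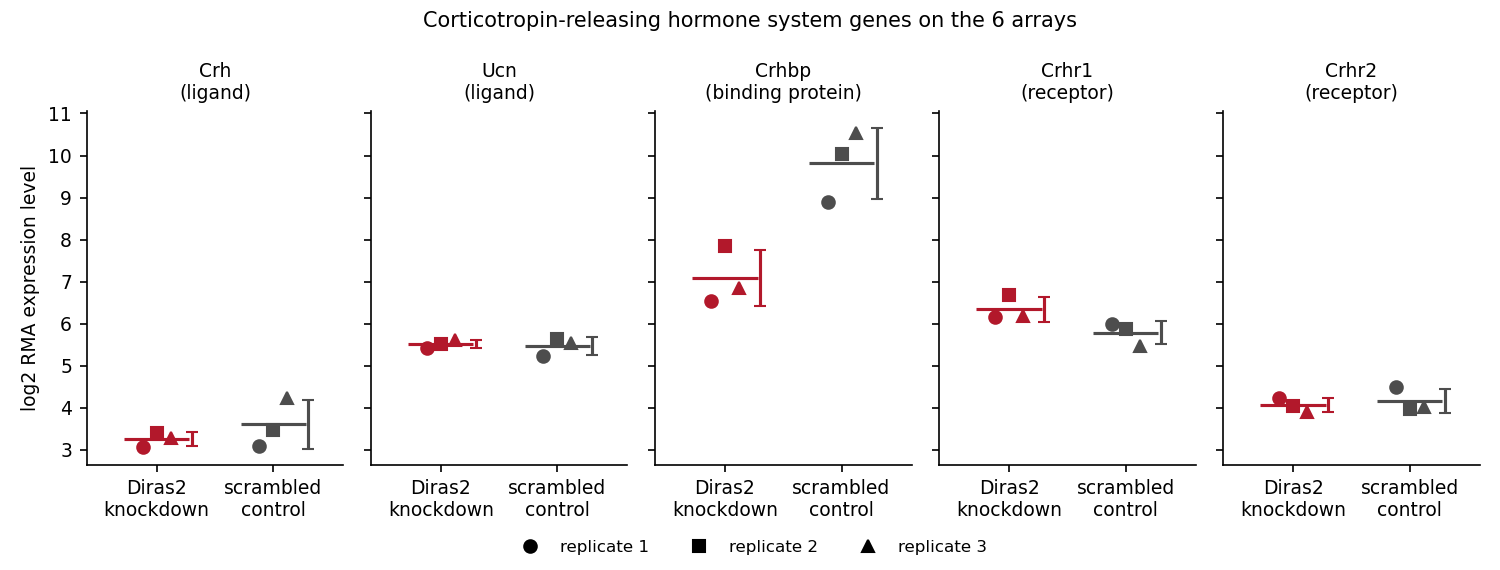
Log2 RMA expression levels of the 5 genes on each of the 3 Diras2 knockdown arrays (red, left) and the 3 scrambled control arrays (grey, right), with the replicate number given by marker shape, the group mean as a line and the SD as a bar beside it. Crhbp ran from 6.55 to 7.84 in knockdown and from 8.89 to 10.54 in control arrays, and Crh, Ucn and Crhr2 overlapped between the groups. Levels of different genes come from different probes and are not to be set against each other.

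The peptide Crh itself was read low on every array. Its level was 3.07, 3.40 and 3.29 in the knockdown arrays, against 3.10, 3.48 and 4.23 in the control arrays. The groups overlapped, and the value that stood apart was the 4.23 of control replicate 3. The mean was 3.25 ± 0.17 in knockdown and 3.60 ± 0.58 in control arrays (SD, n = 3 each), a log2 difference of -0.35 with a 95% interval of -0.94 to 0.24 and an adjusted p by limma of 0.520. Without control replicate 3 the log2 difference was -0.04. Only 26.1% of genes tested had a lower mean over the 6 arrays, so the probe set lay in the dim part of the scale. Whether Crh was above background was not tested, and a change of its transcript near this floor would be compressed.

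Urocortin, the other ligand measured, stayed within a narrow range. Ucn was at 5.41, 5.52 and 5.62 in knockdown arrays and at 5.22, 5.63 and 5.55 in control arrays. The groups overlapped throughout, with means of 5.52 ± 0.10 in knockdown and 5.47 ± 0.22 in control arrays (SD, n = 3 each). The log2 difference was 0.05 with an adjusted p of 0.885 by limma. Its 95% interval holds differences in either sense, down to -0.25 and up to 0.35. The sign of the difference was not settled: the difference was -0.07 without control replicate 1. The relatives Ucn2 and Ucn3, which bind CRHR2, did not pass either. Ucn2 was at 2.40, 2.75 and 2.91 in knockdown arrays, against 3.47, 2.95 and 3.09 in control arrays, near the lower end of the scale, with an adjusted p by limma of 0.157. Ucn3 had means of 3.91 ± 0.06 in knockdown and 3.98 ± 0.13 in control arrays (SD, n = 3 each) and an adjusted p by limma of 0.782.

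The binding protein carried the large difference. Crhbp was at 6.55, 7.84 and 6.86 in the knockdown arrays, against 8.89, 10.03 and 10.54 in the control arrays. Every knockdown value lay below every control value, and the nearest pair, knockdown replicate 2 and control replicate 1, was still about 1 unit apart. The mean was 7.08 ± 0.67 in knockdown and 9.82 ± 0.85 in control arrays (SD, n = 3 each), a log2 difference of -2.74 (SE 0.45, 95% interval -3.76 to -1.71), which is a 6.67-fold higher level in the control. By this difference Crhbp ranked as number 4 from the bottom among the 22180 genes, but only as number 618 by its p, because its spread within groups, 0.76, was far above the median of 0.15 over all genes.

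Part of that spread was shared between arrays of the same replicate number. Within same-numbered pairs, the knockdown minus control difference of Crhbp was -2.34, -2.19 and -3.68. The adjusted p by limma was 0.00949, and 0.00290 with the replicate number as a block. It was 0.0533 without control replicate 2 and 0.0522 after adjustment for RNA integrity, where the log2 differences were -2.63 and -2.54. The RNA integrity number was 9, 9.3 and 9.2 for knockdown RNA, against 9.2, 9 and 8.8 for control RNA. For Crhbp taken alone, an exact two-sided permutation test returned 0.1, which is the smallest p possible with 3 arrays a group. Any gene whose groups do not overlap returns this value, and 25.5% of all genes had such groups. Crhbp was also chosen with its low level known, so nothing is read from this p.

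**Figure D2:**
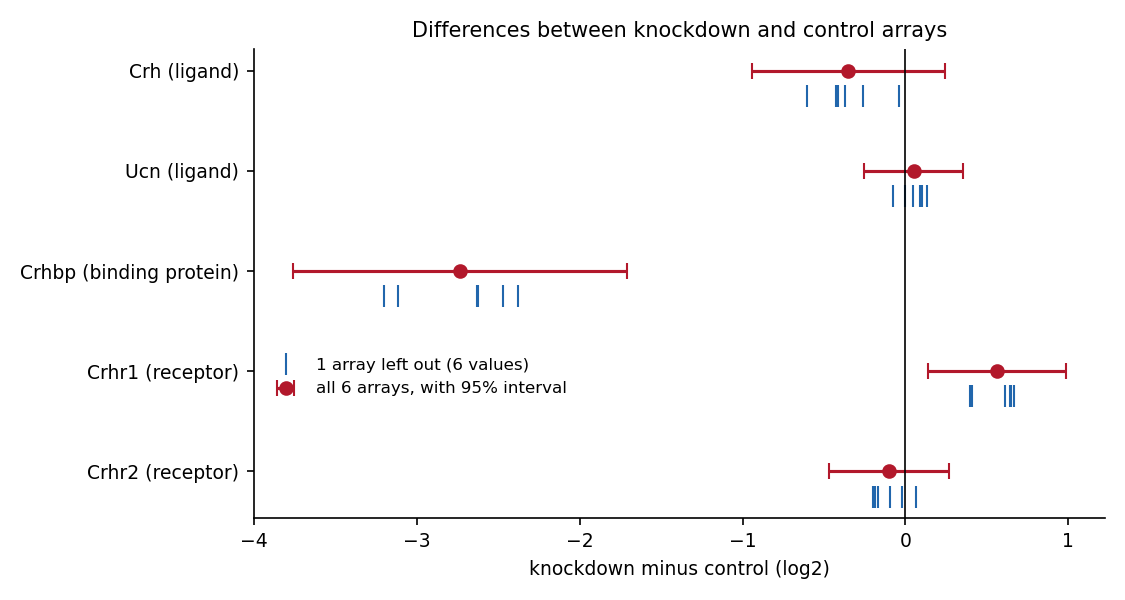
Log2 difference, knockdown minus control, for the 5 genes: red points with bars give the value over all 6 arrays and its 95% interval for that gene alone, and blue ticks the 6 values with 1 array left out. Crhbp stayed between -3.20 and -2.38, Crhr1 between 0.40 and 0.67, and the values of Ucn and Crhr2 lay on both sides of 0.

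Of the receptors, Crhr1 had a higher level in each knockdown array than in any control array. It was at 6.17, 6.68 and 6.18 in knockdown arrays, against 5.99, 5.88 and 5.47 in control arrays. The groups were close, with 0.18 between knockdown replicate 1 and control replicate 1. The means of 6.34 ± 0.29 in knockdown and 5.78 ± 0.27 in control arrays (SD, n = 3 each) gave a log2 difference of 0.56 (SE 0.18) and an adjusted p of 0.119 by limma, which did not pass. With the replicate number as a block it rose, with the same difference, an SE of 0.14 and an adjusted p of 0.0492. After adjustment for RNA integrity the log2 difference was 0.34 and the adjusted p 0.330. The interval of the difference for this gene alone ran from 0.14 to 0.99.

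Crhr2, the receptor that prefers urocortins, gave no difference beyond its spread. Its level was 4.24, 4.05 and 3.90 in knockdown arrays and 4.49, 3.97 and 4.03 in control arrays, with the highest and the second lowest value both in the control group. The log2 difference was -0.10 with a 95% interval of -0.47 to 0.27 and an adjusted p by limma of 0.801, and it was 0.06 without control replicate 1. Of the genes tested, 38.7% had a lower mean, against 59.9% for Crhr1 and 86.2% for Crhbp. These shares describe probe sets and not numbers of transcripts.

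The promoter windows of Crhbp, Crhr1 and Ucn are shown because they belong to the member that fell, the member that passed only in the fit under the replicate block, and the member with the narrowest range. Each is 300 bases, 250 before and 50 after the annotated start, from RefSeq on GRCm38.p6. RefSeq windows were matched for 4 of the 5 members, all but Crh. Capitals mark the cyclic AMP response element TGACGTCA, the sequence bound by CREB, or its short form TGACG on either strand (read as CGTCA on the other), and the TATA box TATAAA on either strand. The short form is contained in the full element.
Crhbp, chr13:95444782-95445081, minus strand: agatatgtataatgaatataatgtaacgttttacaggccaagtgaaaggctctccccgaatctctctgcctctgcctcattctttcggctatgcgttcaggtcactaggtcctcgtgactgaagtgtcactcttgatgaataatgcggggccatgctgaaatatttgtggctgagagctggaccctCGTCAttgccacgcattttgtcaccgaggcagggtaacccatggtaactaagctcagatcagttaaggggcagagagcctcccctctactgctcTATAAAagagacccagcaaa
Crhr1, chr11:104132531-104132830, plus strand: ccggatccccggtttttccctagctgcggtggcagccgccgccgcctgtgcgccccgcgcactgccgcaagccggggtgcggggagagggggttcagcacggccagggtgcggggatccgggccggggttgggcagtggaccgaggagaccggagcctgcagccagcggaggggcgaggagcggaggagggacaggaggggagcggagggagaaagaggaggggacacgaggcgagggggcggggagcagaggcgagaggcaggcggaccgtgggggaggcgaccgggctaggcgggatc
Ucn, chr5:31138846-31139145, minus strand: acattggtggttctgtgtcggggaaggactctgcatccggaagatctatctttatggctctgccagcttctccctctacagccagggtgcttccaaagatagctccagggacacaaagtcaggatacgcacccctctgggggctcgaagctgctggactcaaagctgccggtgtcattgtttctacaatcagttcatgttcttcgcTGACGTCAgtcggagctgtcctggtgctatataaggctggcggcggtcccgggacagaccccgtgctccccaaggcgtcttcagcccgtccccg

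The Ucn window held the full TGACGTCA at position -44 from the start, which 1.79% of 32851 promoter windows hold. The Crhbp window held the short form once, on the opposite strand at position -64, as 20.81% of windows do. It also held TATAAA at position 31 after the annotated start, and 13.62% of windows hold that motif. The Crhr2 window, not printed, held TATAAA at position -39. The Crhr1 window held none of these letters and was 75.0% G and C, against 48.0% for Crhbp and a median of 52.7% over all windows. A match of letters describes the window and does not show that a factor binds there, and the absence of a match says only that these letters are not in the window.

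The genes whose profile over the 6 arrays was nearest to that of Crhbp were Tac1, Nmbr, Siah3, Rsph4a and Igf1, by the Euclidean distance of log2 levels after subtracting each gene's mean over the 6 arrays. Tac1, the precursor of substance P, was nearest at a distance of 1.07, with 5.64, 6.52 and 6.20 in knockdown arrays and 7.17, 8.13 and 8.99 in control arrays. It shared with Crhbp the lowest knockdown value in replicate 1 and the highest control value in replicate 3. Nmbr, the neuromedin B receptor, lay at 1.45, Siah3, of the Siah ubiquitin ligase family, at 1.48, Rsph4a, a protein of ciliary radial spokes, at 1.59 and Igf1, a growth factor, at 1.61. Because the 5 were picked for likeness to Crhbp over these same arrays, a lower level in knockdown follows largely from the choice and is given as a description. By limma 4 of them were called lower, with adjusted p-values from 0.000578 for Siah3 to 0.0277 for Tac1. Igf1, at 5.42, 6.29 and 6.12 in knockdown arrays and 6.42, 7.87 and 8.11 in control arrays, had an adjusted p of 0.0718 by limma, which was 0.00473 under the replicate block. The call of Tac1 was lost without control replicate 2 and without any 1 knockdown array (0.0663 to 0.106), and that of Nmbr without control replicate 2 (0.0590) or knockdown replicate 2 (0.0652).

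**Figure D3:**
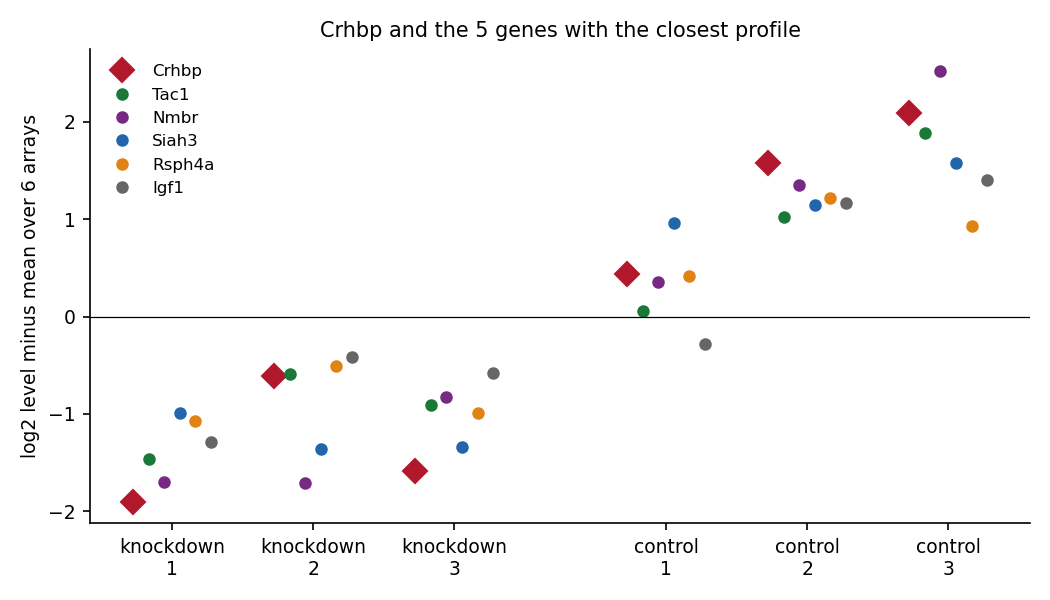
Log2 level minus the gene's mean over the 6 arrays, for Crhbp (diamonds) and the 5 genes with the smallest distance to it (circles), with knockdown arrays on the left and control arrays on the right. Apart from Igf1 in control replicate 1, all points lie below 0 in knockdown and above 0 in control arrays.

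For Crh the nearest profiles were those of Cnn1, Platr6, H1f2, Gpr165 and Cthrc1, at distances of 0.15 to 0.22. None of the 5 was called, with adjusted p-values by limma from 0.381 to 0.621. In each of them control replicate 3 was the highest array, as it was for Crh. Cnn1, a smooth muscle calponin, was at 3.92, 4.08 and 4.03 in knockdown arrays and at 3.84, 4.13 and 4.97 in control arrays. Replicate 1 was the lowest array of each group in all 5 and in Crh.

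Genes of several kinds of interneurons, not only the somatostatin cells named above, were then set beside Crhbp. Of 12 interneuron peptides and calcium-binding proteins, 2 fell, 1 rose and 9 did not pass, where 7.80% of all genes were called, with a median log2 difference of -0.55 against 0.00 over all genes. Those that fell were Tac1, with a log2 difference of -1.98, and Calb1, the calcium buffer calbindin, at 8.37 ± 0.10 in knockdown and 9.30 ± 0.03 in control arrays (SD, n = 3 each). Nos1, the neuronal nitric oxide synthase, rose, with 7.62, 7.96 and 7.75 in knockdown arrays against 6.71, 6.85 and 6.74 in control arrays. Under the replicate block 6 of the 12 fell and 1 rose, where 11.7% of all genes were called. The number that fell was 1 without control replicate 2, without any 1 of the knockdown arrays and after adjustment for RNA integrity, the call lost being that of Tac1.

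Sst, the somatostatin precursor, named after its values were seen, was at 10.77, 12.10 and 11.72 in knockdown arrays and at 11.62, 12.67 and 12.77 in control arrays. The groups overlapped, but within each pair the knockdown array was lower, by differences of -0.85, -0.57 and -1.05. The adjusted p by limma was 0.282, and 0.00806 under the replicate block. Npy, neuropeptide Y, and Cort, cortistatin, likewise picked out afterwards, differed by -1.24 and -0.85 on the log2 scale. Their adjusted p-values by limma were 0.477 and 0.655, but 0.00767 and 0.00688 once the replicate number was a block. In these 3 genes, as in Crhbp, replicate 1 was the lowest array of each group.

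Of 13 measured markers of inhibitory neurons 1 fell, 0 rose and 12 did not pass, beside 3.64% of all genes called lower, with a median log2 difference of -0.38. The marker that fell was Lhx6, which specifies interneurons born in the medial ganglionic eminence, with 7.57, 7.84 and 7.30 in knockdown arrays against 8.46, 8.97 and 8.88 in control arrays. Nxph1, a secreted partner of neurexins, and Erbb4, the neuregulin receptor, had adjusted p-values of 0.0961 and 0.0785 by limma. Under the replicate block 4 markers fell, beside 11.7% of all genes called in either direction. Leaving out control replicate 1 gave 5 that fell and a median of -0.62. The enzymes and transporter that define these cells, named after their values were seen, did not pass: Gad1 had a log2 difference of 0.11, Slc32a1 of -0.22 and Gad2 of -0.45. The list's mean level was 6.96 to 7.34 in knockdown arrays and 7.21 to 7.72 in control arrays. In bulk RNA, fewer interneurons and less RNA per interneuron cannot be told apart.

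The difference of Crhbp was also computed relative to these genes on the same array, after the values were seen. Crhbp minus the mean of the inhibitory neuron markers was -0.41, 0.50 and -0.23 in knockdown arrays, against 1.68, 2.31 and 2.90 in control arrays. The difference between the groups was -2.34, compared with -2.74 for Crhbp alone. Relative to Sst the difference was -1.91, to Lhx6 -1.54 and to Tac1 -0.76. Crhbp was chosen with its large difference known, so a remainder against genes that differed less follows from the choice, and these values are a description with no test. The part of the interneuron markers in the result for Crhbp was not tested.

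Markers of Cajal-Retzius cells, the early source of hippocampal Crh, numbered 8, of which 2 fell, 0 rose and 6 did not pass, beside 3.64% of all genes called lower, with a median log2 difference of -0.15. Ndnf, a secreted neurotrophic factor also found in some interneurons, was at 6.98 ± 0.28 in knockdown and 8.02 ± 0.27 in control arrays (SD, n = 3 each). Cxcr4, a chemokine receptor, had 7.25, 6.74 and 6.92 in knockdown arrays against 7.89, 7.74 and 7.65 in control arrays. Lhx5, a transcription factor of these cells, differed by 0.22 on the log2 scale, with 0.348 as its adjusted p by limma. Reln and Trp73, the reelin and p73 genes that define the cells, named after their values were seen, had differences of -0.14 and -0.10 and did not pass. The list's mean level was 5.91 to 5.94 in knockdown and 6.18 to 6.34 in control arrays, and its part in the result for Crhbp or Crh was not tested. Ndnf and Cxcr4 lost their calls without control replicate 2 (0.0522 and 0.0675), Cxcr4 also without knockdown replicates 2 and 3 (0.0618 and 0.0658), and both after adjustment for RNA integrity (0.0623 and 0.0773).

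Peptides such as Crh are cut from precursors and packed into dense-core granules. Of 14 measured genes of this route 1 fell, 0 rose and 13 did not pass, beside 3.64% of all genes called lower. Of the 14, 12 had a negative difference, where 50.3% of all genes had a positive one. The list median was -0.32 against 0.00 over all genes. Pcsk1, the convertase that cuts many prohormones, was at 7.30, 7.69 and 7.27 in knockdown arrays, against 8.27, 8.02 and 7.84 in control arrays. Its adjusted p of 0.0497 by limma lay at the threshold, and the call was lost without knockdown replicate 1 or 3 or control replicate 1 or 2 (0.109 to 0.162), with median centring (0.0609), with robust fitting (0.0507) and with the probe sets of each gene averaged (0.05001). The number of members that fell was 0 without knockdown replicate 1 or 3 or control replicate 2, and 2 without control replicate 1. Scg2, secretogranin II, was at 9.91, 10.39 and 10.49 in knockdown arrays and at 10.69, 11.05 and 11.57 in control arrays, without overlap, and its adjusted p by limma was 0.0740, or 0.00674 under the replicate block. Cadps, which primes dense-core vesicles for release, differed by -0.37 on the log2 scale, with 0.0858 as its adjusted p by limma. Under the replicate block 4 members fell, where 11.7% of all genes were called in either direction. The block added Scg2, Vgf and Qpct, the last 2 named after their values were seen.

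Downstream of the receptors, the array measured 28 genes of the Gs and cyclic AMP relay, of which 2 rose, 1 fell and 25 did not pass, beside 7.80% called over all genes, and the median log2 difference was -0.01. Pde4a, a phosphodiesterase that breaks down cyclic AMP, fell, with 6.96, 6.85 and 7.03 in knockdown arrays against 7.70, 7.89 and 7.76 in control arrays, and the adjusted p by limma was 0.00311. Rapgef3, the Rap exchange factor that cyclic AMP opens, rose, with 6.20, 5.76 and 6.11 in knockdown arrays against 5.32, 5.35 and 5.41 in control arrays. Prkar1a, a regulatory subunit of protein kinase A, rose by 0.41 on the log2 scale, with an adjusted p by limma of 0.0487. Under the replicate block 5 rose and 2 fell, where 11.7% of all genes were called. The call of Pde4a was held without each array in turn. Rapgef3 lost its call without knockdown replicate 1 or 3 or control replicate 1 or 2 (0.0501 to 0.0854), and also as the mean of its 2 probe sets, with a log2 difference of 0.30 (0.0977). Prkar1a lost its call without each array but control replicate 3 (0.101 to 0.180), with quantile normalisation (0.0723) and after adjustment for RNA integrity (0.0997).

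Of 19 measured genes of the glucocorticoid and stress axis 4 fell, 0 rose and 15 did not pass, where 3.64% of all genes were called lower and 4.17% higher, with a median log2 difference of -0.02. Sgk1, a kinase induced by glucocorticoids, was at 6.49, 6.74 and 6.77 in knockdown arrays, against 7.29, 7.70 and 7.86 in control arrays. Hsd11b1, which regenerates active glucocorticoid, was at 4.52, 4.90 and 4.75 in knockdown arrays, against 5.81, 5.49 and 5.54 in control arrays. Fkbp5, a co-chaperone that dampens the glucocorticoid receptor and is induced by it, was at 5.19, 5.10 and 5.01 in knockdown arrays, against 6.00, 5.68 and 5.68 in control arrays. The groups did not overlap for any of these 3 genes, which follows largely from their being called on these same arrays. Over the whole list the groups did not overlap, in either direction, for 5 of 19 genes, beside 25.5% of all genes. Oxtr, the oxytocin receptor, was the other member that fell, with a log2 difference of -0.76. Other genes induced by glucocorticoids, named after their values were seen, did not pass: Tsc22d3 differed by 0.39 on the log2 scale and Per1 by 0.19, with adjusted p-values by limma of 0.0896 and 0.600. The receptors Nr3c1 and Nr3c2, named in the same way, had differences of -0.15 and 0.03 and did not pass. The number that fell was 2 without control replicate 2, knockdown replicate 2 or knockdown replicate 3 and after adjustment for RNA integrity. It was 3 without control replicate 1, and 5 without control replicate 3 or with array weights. The call of Hsd11b1 was held without each array in turn. Sgk1 lost its call without control replicate 2 (0.0598), and Fkbp5 without knockdown replicate 2 or 3 (0.0595 without knockdown replicate 2). Oxtr lost its call without control replicate 1 or 2 or knockdown replicate 2 or 3 (0.0534 to 0.0965). After adjustment for RNA integrity Sgk1 (0.0584) and Oxtr (0.0841) lost theirs.

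Among 13 other class B receptors, the family of Crhr1 and Crhr2, 1 rose, 0 fell and 12 did not pass, beside 4.17% of all genes called higher, with a median log2 difference of 0.06. The one that rose was Calcrl, the receptor part for calcitonin gene-related peptide and adrenomedullin, at 5.33, 5.16 and 5.07 in knockdown arrays, against 3.92, 3.82 and 3.69 in control arrays. Adcyap1r1, the receptor for PACAP, was at 8.79 ± 0.31 in knockdown and 9.04 ± 0.21 in control arrays (SD, n = 3 each) with an adjusted p of 0.509 by limma, and Pth1r, the parathyroid hormone receptor, had a log2 difference of 0.27 with an adjusted p of 0.250.

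**Figure D4:**
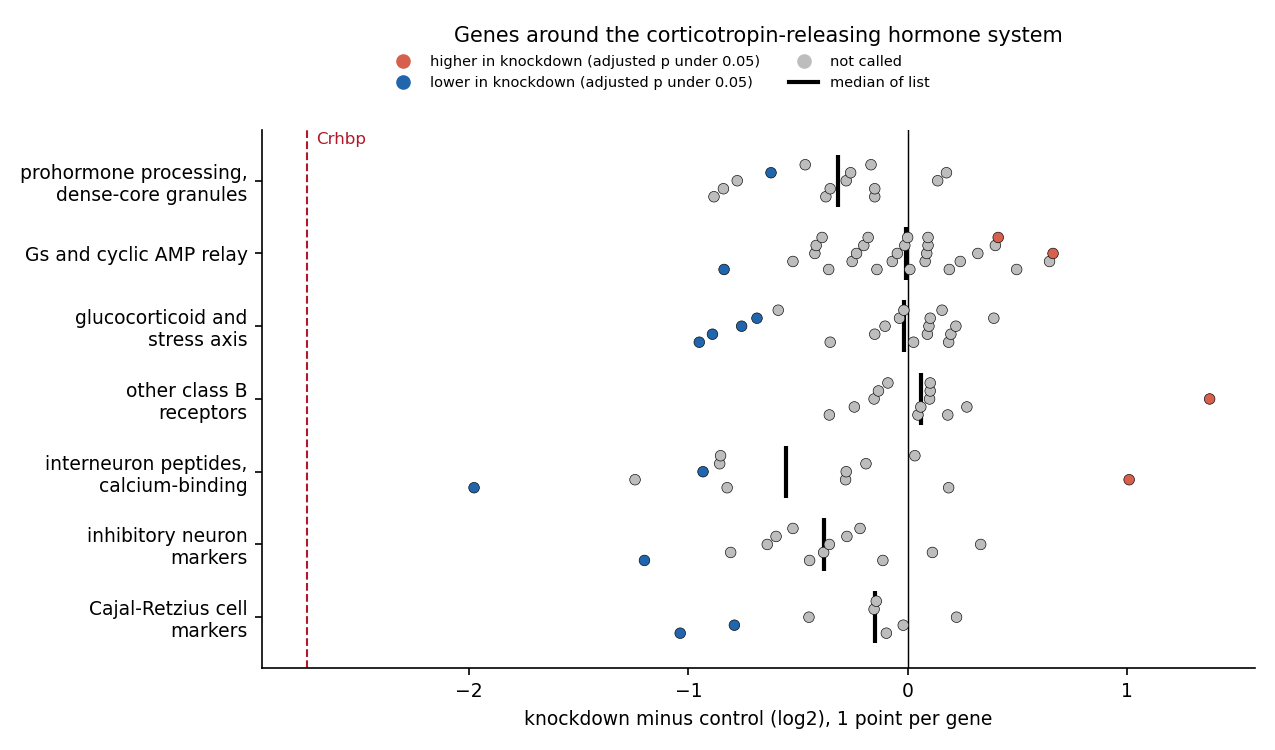
Log2 difference, knockdown minus control, of each measured gene in 7 lists, with 1 point per gene, called genes in colour, the list median as a black bar and the value of Crhbp as a dashed line at -2.74. No gene of these lists lies as low as Crhbp, and the lowest is Tac1 at -1.98. Crhbp was chosen with its low level known, so its place below the lists follows largely from that choice.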

How the data were processed

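Total RNA of 6 samples was read on Affymetrix expression arrays, 1 per sample, after whole-transcript amplification and biotin labelling, per the labels' protocols. Per the submitters' processing notes, the authors used Affymetrix Expression Console 1.2.1.20 and RMA, and the deposited unit is a log2 level for each probe set. RMA puts all arrays on one distribution and compresses weak signals. A change shared by most genes is therefore hidden, and differences between weak signals are understated. Detection calls and probe intensities were not used here, and precision is limited by the small number of arrays.

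Of 41345 probe sets, 23521 have 1 gene symbol in the platform annotation, 1814 have several and 16010 are unnamed here. The brightest probe set per gene, by mean over the 6 arrays, gave 22180 genes, of which 21994 matched a RefSeq gene by Entrez number. Groups came from the labels. Knockdown minus control was tested with limma 3.58.1 in R 4.3.3 (lmFit, eBayes), with Benjamini-Hochberg adjustment over all genes and a call at an adjusted p under 0.05. Members and lists were chosen with earlier results of these data known. Besides the 5 members and Diras2, genes named are Ucn2 and Ucn3, the called genes of each list (up to 6, or the 3 with the smallest p where fewer than 3 were called), and the 5 nearest profiles to Crhbp and Crh. A gene outside this rule is marked in the text as named after its values were seen.

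Same-numbered arrays deviated together from their group means across genes (correlations 0.43, 0.12 and 0.37, all above 0.1, and -0.38 to 0.06 otherwise). Same-numbered samples were therefore treated as pairs in the fit with the replicate block. This pairing is drawn from the same arrays that the block fit tests, so p-values under the block depend on that choice. Deviations within a group cancel out, so the correlations are not independent of each other. The 0.12 of replicate 2 was also near the 0.06 found outside the pairs. The fit without the block is the main one. Alternatives were the block, leaving out each array, quantile normalisation, median centring, mean levels of at least 5 or 6, array weights, an intensity trend, robust fitting, adjustment for RNA integrity and averaging the probe sets of each gene. Only the fit without the block was run on simulated data. Noise there was drawn independently for each gene and array, so deviations shared by same-numbered arrays and the block fit were not covered. Figures were drawn with matplotlib 3.10.9.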

Additional observations from a re-analysis of the deposited data

How the results depend on the processing

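Crhbp kept its direction under all 16 alternatives and its call under 14, with a log2 difference of -3.20 to -2.38 when 1 array was left out. The exceptions were adjustment for RNA integrity (-2.54, adjusted p by limma 0.0522) and leaving out control replicate 2 (0.0533). Crhr1 was called under 1 of 16, the replicate block, with 0.56 (0.0492), and ran from 0.40 to 0.67 with 1 array left out. Under the replicate block no call of another member changed. Crh and Crhr2, tested under 14 alternatives each because both fall below the filters on mean level, and Ucn, tested under 15, were called under none, with adjusted p-values of at least 0.168 when 1 array was left out. With 1 array left out Crh ran from -0.60 to -0.04, Crhr2 from -0.197 to 0.063 and Ucn from -0.073 to 0.132, and with array weights Ucn was at -0.015. Outside the 5, Ucn3 ran from -0.113 to 0.002, Cnn1 from -0.540 to 0.025 and Platr6 from -0.485 to 0.005, each turning positive without control replicate 3. Genes called over the whole table numbered 1731, and 2703 with array weights, 758 after adjustment for RNA integrity and 689 to 1487 with 1 array left out. Under the replicate block they numbered 2593. Members of the pathway lists called numbered 12, and 23 under the replicate block, 20 with array weights and 6 to 13 with 1 array left out. The cause of these shifts was not tested. Signal over background was not used here, which limits what can be said of dim genes such as Crh.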
